A study of Homo sapiens with 16 samples.

Results

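Mesenchymal and extracellular matrix genes were read in RNA sequencing libraries of NCI-H1975 and HCC827 lung adenocarcinoma cells. All 46 listed symbols were found among 19951 protein-coding genes. The members described here are the 34 that reached a gene FPKM of at least 1 in at least 2 of 14 libraries, a threshold that 11936 protein-coding genes passed. FPKM, the authors' unit, stands for fragments per kilobase of gene, scaled across the libraries of a table. NCI-H1975 cells were treated with the chloroform fraction of Flos Magnoliae (dried magnolia flower buds; "fraction" below), with magnolin (a lignan of these buds), or kept as control, with 4 libraries in each group. Parental HCC827 cells, which were not tested against anything here, gave 2 libraries. Every library carries the genotype label WT, which names no allele, and both established lines are known to carry EGFR mutations, the NCI-H1975 line with a mutation that lowers sensitivity to early EGFR inhibitors. The series set out to look at changes after resistance to EGFR inhibitors. The sources used here give no dose, duration or vehicle, nor the culture behind each replicate number, and each line stands for a single model.

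Epithelial cells that take on mesenchymal traits lower their junction and keratin genes and raise vimentin, fibronectin and matrix-remodelling genes, under transcription factors of the ZEB, SNAIL and TWIST families. The matrix they lay down is built of collagens and glycoproteins, crosslinked by lysyl oxidases, cut by proteases and sensed through integrins and CD44. In EGFR-mutant lung adenocarcinoma such a state is known as a companion of reduced response to EGFR inhibitors.

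NCI-H1975 libraries held 16.0 to 21.3 M rebuilt reads and HCC827 libraries 15.9 to 16.4 M. Replicates 1 and 2 of each NCI-H1975 group were deposited together and normalized together, replicates 3 and 4 in another table and HCC827 in a further one. The main tests of treatment were therefore made within a table. Fits over both NCI-H1975 tables served as alternatives or compared treatment effects between the replicate pairs. Replicate 1 stood apart from the other NCI-H1975 libraries: EPCAM, an epithelial adhesion molecule, was at 178, 172 and 193 FPKM in replicate 1 of fraction, magnolin and control, against 11.6, 9.62 and 14.4 FPKM in replicate 2 in the same order. Of 9 lung adenocarcinoma line markers, 7 reached FPKM 1 in every NCI-H1975 library, NAPSA and SFTPB being near 0, and 9 did so in HCC827. Of 9 fibroblast markers none reached FPKM 1 in any library, and their summed level was 0.424 to 1.95 FPKM in NCI-H1975. Mitochondrial reads made up 7.60% to 9.42% of the NCI-H1975 libraries of replicates 1 and 2.

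The members filled all but the ligand role, whose sole listed gene WNT5A stayed outside. By role, 4 of 6 transcription factors, 6 of 8 cytoskeletal, adhesion and cell-enzyme genes, 8 of 10 collagens, 6 of 9 matrix glycoproteins, both crosslinking enzymes, 5 of 7 turnover genes and all 3 receptors were members. TWIST2, COL4A1 and COL4A2 were members through HCC827 alone. Just inside the threshold stood COL4A1, with 1.33 FPKM in its second-highest library, and ITGB3 with 2.41 FPKM. Just outside stood ACTA2, smooth muscle actin, at 0.970 FPKM in its highest library, COL5A2 at 0.950 FPKM, ZEB2 at 0.760 FPKM and WNT5A, at 1.005 FPKM in a single library and at most 0.700 FPKM in the rest. The remaining 8 listed genes had at most 0.573 FPKM anywhere (FBLN5, FBN1, MMP2, COL6A3, CDH2, TIMP3, POSTN and TWIST1). N-cadherin, the product of CDH2 and a classical mesenchymal marker, thus came with at most 0.0618 FPKM, and TWIST1 was listed at 0 in all 14 libraries.

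**Figure D1:**
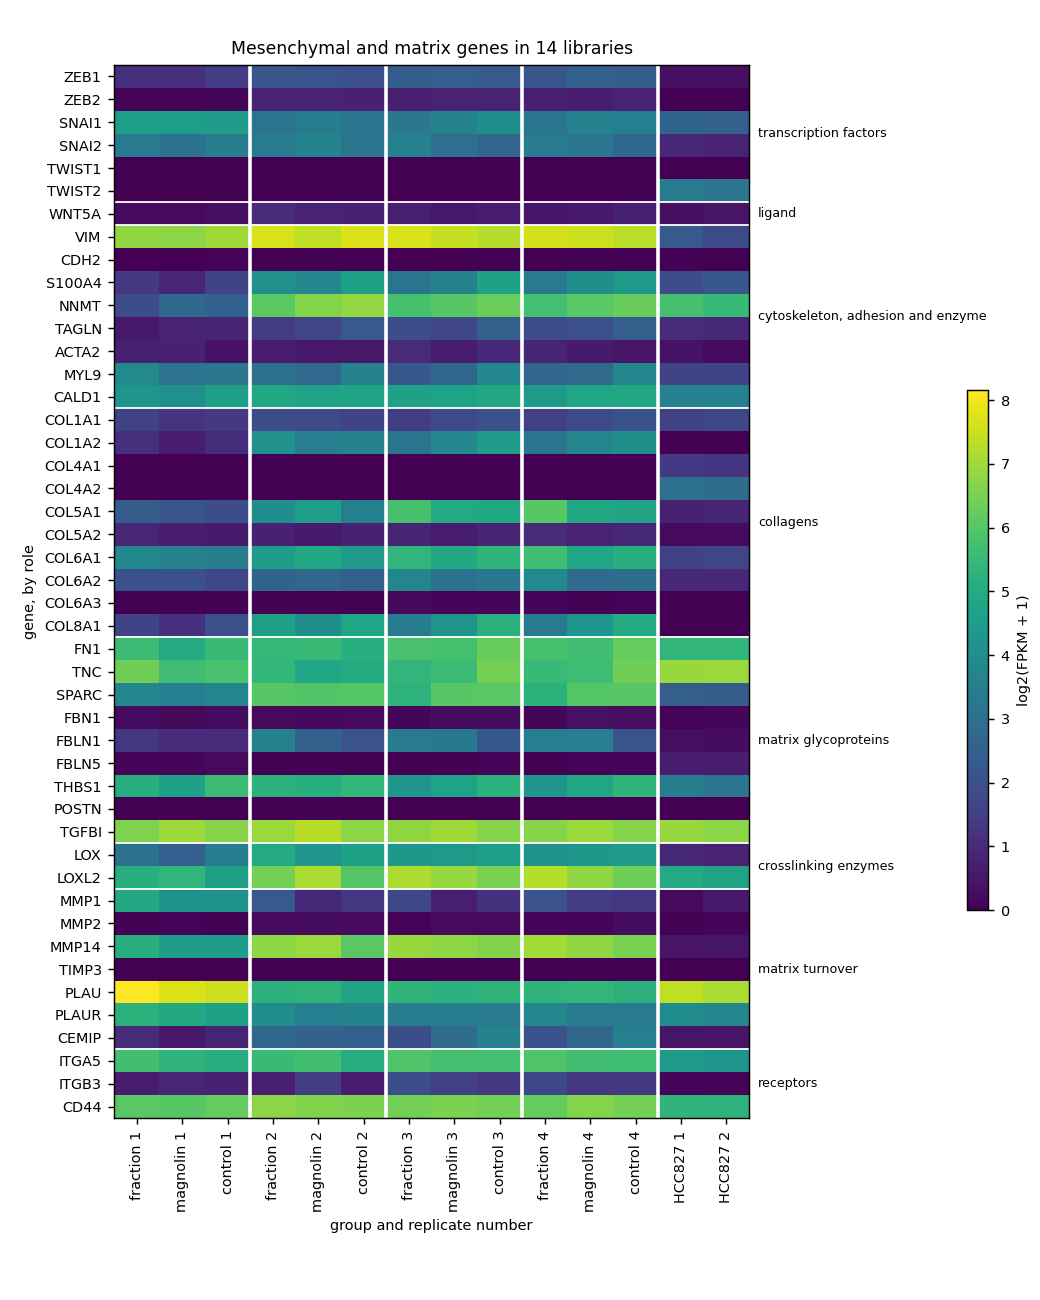
Level of all 46 listed genes in 14 libraries, as log2(FPKM + 1) on the colour scale; rows are genes in blocks by role, columns are the NCI-H1975 fraction, magnolin and control libraries of replicates 1 to 4 and the 2 HCC827 libraries, with white lines between replicate numbers. Replicate 1 differs from replicates 2 to 4 in many rows, and TWIST2, COL4A1 and COL4A2 have colour in HCC827 alone.

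In replicates 3 and 4, members differed between fraction and control in both directions. Collagen genes split, with COL5A1 and COL6A2 higher and COL8A1, COL1A2 and COL1A1 lower than in control, and most matrix glycoproteins and contractile genes that changed were lower. Of 31 members tested, 20 passed the threshold (adjusted p under 0.05, limma on log2(FPKM + 1), adjusted over 14673 genes), 8 higher and 12 lower. Among all 14673 genes tested, 19.9% passed, 8.33% higher and 11.6% lower. The median log2 change was -0.12 over the tested members and -0.01 over all genes tested. In these replicates mitochondrial reads made up 8.17% and 7.04% in fraction cells, 6.40% and 6.38% in magnolin cells and 5.84% and 5.83% in control cells. Genes at FPKM 1 or more numbered 14011 and 13995 in fraction cells, 13376 and 13268 in magnolin cells and 13662 and 13493 in control cells. The part of both measures in the members' changes was not tested. All 31 passed the low-value filter, 30 of them with at least 1 FPKM in each of the 6 libraries of that table. In each sentence below, the values of a group run in the order of replicates 1, 2, 3 and 4, the fold change is on the log2(FPKM + 1) scale with its standard error (SE), and tests refer to replicates 3 and 4 with 2 libraries a group. As the samples are bulk cultures, fewer cells of a type and less RNA per cell cannot be told apart.

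Among the transcription factors, SNAI2 was higher with the fraction while SNAI1 and ZEB1 did not pass. SNAI2 (SLUG), a zinc-finger repressor of epithelial genes, had 9.30, 9.29, 10.9 and 9.14 FPKM in fraction cells, 7.38, 11.6, 6.89 and 8.30 FPKM in magnolin cells and 10.04, 7.85, 5.36 and 5.81 FPKM in control cells. Its fraction libraries 3 and 4 lay above both controls of those numbers, a log2 change of 0.74 (SE 0.12, adjusted p = 0.0113). SNAI1, the founding member of the same family, had 22.4, 7.89, 8.41 and 8.11 FPKM in fraction cells, 22.4, 9.88, 11.5 and 11.1 FPKM in magnolin cells and 21.1, 8.20, 14.9 and 10.5 FPKM in control cells, so replicate 1 stood above all others in each group and the fraction of replicates 3 and 4 lay under control without passing, a log2 change of -0.54 (SE 0.15, adjusted p = 0.0552). ZEB1, a repressor of E-cadherin, had 1.13, 3.54, 4.27 and 3.56 FPKM in fraction cells, 1.14, 3.31, 4.43 and 4.61 FPKM in magnolin cells and 1.68, 2.97, 4.12 and 4.29 FPKM in control cells, with fraction and control overlapping in replicates 3 and 4 and magnolin above both, a log2 change of -0.09 (SE 0.10, adjusted p = 0.587). The pseudogene SPTLC1P1 on the same strand (at most 3.71 FPKM) and antisense ZEB1-AS1 (at most 2.16 FPKM) overlap ZEB1, so its share of reads is uncertain.

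Of 6 cytoskeletal, adhesion and cell-enzyme members, 4 fell and 1 rose. VIM, the intermediate filament protein vimentin, had 111, 201, 201 and 199 FPKM in fraction cells, 107, 167, 174 and 187 FPKM in magnolin cells and 125, 209.9, 150.1 and 156 FPKM in control cells. Fraction was the highest group in replicates 3 and 4 and did not overlap control, a log2 change of 0.38 (SE 0.066, adjusted p = 0.0137), whereas in replicates 1 and 2 control was the highest. MYL9, a regulatory light chain of myosin, had 13.9, 7.41, 3.76 and 5.36 FPKM in fraction cells, 7.53, 5.98, 5.76 and 6.12 FPKM in magnolin cells and 8.51, 11.1, 13.0 and 12.7 FPKM in control cells. Both fraction libraries of replicates 3 and 4 lay under both controls, a log2 change of -1.33 (SE 0.14, adjusted p = 0.0031), and replicate 1 of the fraction was the highest of all 12. S100A4, a calcium-binding protein long used as a mesenchymal marker, had 1.58, 15.9, 8.03 and 9.45 FPKM in fraction cells, 0.829, 13.1, 11.5 and 15.5 FPKM in magnolin cells and 2.19, 23.8, 24.5 and 20.5 FPKM in control cells. Control was the highest group at every replicate number, and the change in replicates 3 and 4 was -1.27 (SE 0.16, adjusted p = 0.00523). S100A3 overlaps S100A4 on the same strand and reached 23.6 FPKM in its highest library, so how reads were shared between them is uncertain.

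NNMT, nicotinamide N-methyltransferase, had 2.80, 68.1, 54.6 and 51.9 FPKM in fraction cells, 5.82, 98.7, 64.1 and 66.8 FPKM in magnolin cells and 4.75, 113, 78.6 and 75.9 FPKM in control cells. Fraction lay under magnolin and control at every replicate number, and in replicates 3 and 4 it differed from control by -0.53 (SE 0.067, adjusted p = 0.00508). TAGLN, the actin-binding protein transgelin, had 0.454, 1.66, 2.85 and 2.75 FPKM in fraction cells, 0.719, 2.29, 2.35 and 3.01 FPKM in magnolin cells and 0.794, 3.80, 4.53 and 4.54 FPKM in control cells, with control highest at every number, a log2 change of -0.54 (SE 0.12, adjusted p = 0.0258). PCSK7 overlaps TAGLN on the other strand and reached 2.51 FPKM in its highest library, so how reads were shared there is uncertain. CALD1, caldesmon, which restrains actomyosin, had 18.4, 27.8, 24.2 and 20.7 FPKM in fraction cells, 16.0, 25.2, 25.5 and 27.3 FPKM in magnolin cells and 23.6, 26.3, 28.1 and 28.8 FPKM in control cells and did not pass, a log2 change of -0.33 (SE 0.093, adjusted p = 0.056).

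Of 6 tested collagens, 2 rose and 3 fell with the fraction. COL5A1, the alpha chain of type V collagen that sets fibril diameter, had 4.27, 15.3, 53.9 and 64.7 FPKM in fraction cells, 3.50, 22.0, 30.8 and 28.6 FPKM in magnolin cells and 2.80, 10.5, 28.1 and 26.4 FPKM in control cells. In replicates 3 and 4 the fraction stood well above magnolin and control, which lay close together, a log2 change of 1.09 (SE 0.10, adjusted p = 0.00233). COL6A2 and COL6A1 are chains of beaded-filament type VI collagen. COL6A2 had 3.14, 5.25, 12.3 and 14.1 FPKM in fraction cells, 3.18, 5.64, 7.49 and 6.21 FPKM in magnolin cells and 2.40, 4.84, 8.65 and 6.61 FPKM in control cells, its fraction above control in replicates 3 and 4, a log2 change of 0.73 (SE 0.15, adjusted p = 0.0221). COL6A1 had 13.0, 21.7, 40.7 and 49.0 FPKM in fraction cells, 10.6, 28.4, 29.2 and 27.2 FPKM in magnolin cells and 9.84, 20.3, 39.4 and 34.1 FPKM in control cells and did not pass, a log2 change of 0.28 (SE 0.12, adjusted p = 0.154).

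COL8A1, a short-chain network collagen, had 2.20, 24.1, 9.94 and 9.59 FPKM in fraction cells, 1.21, 15.5, 17.5 and 18.4 FPKM in magnolin cells and 2.97, 27.5, 35.2 and 31.2 FPKM in control cells. In replicates 3 and 4 the fraction was lowest, magnolin intermediate and control highest with no overlap, and the fraction change of -1.66 (SE 0.085, adjusted p = 0.00042) had the greatest absolute size among the 31 tested members. In replicate 2 fraction and control lay close together. COL1A2 and COL1A1 encode the chains of type I collagen. COL1A2 had 1.14, 16.3, 7.94 and 8.29 FPKM in fraction cells, 0.543, 10.2, 12.7 and 12.1 FPKM in magnolin cells and 1.09, 11.2, 21.1 and 15.9 FPKM in control cells, its fraction lowest in replicates 3 and 4 and highest in replicate 2, a log2 change of -1.08 (SE 0.13, adjusted p = 0.0047) in replicates 3 and 4. COL1A1 had 2.02, 2.65, 1.76 and 1.93 FPKM in fraction cells, 1.39, 2.60, 2.49 and 2.60 FPKM in magnolin cells and 1.57, 2.10, 2.99 and 3.11 FPKM in control cells, again with fraction under control in replicates 3 and 4, a log2 change of -0.51 (SE 0.11, adjusted p = 0.0232).

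**Figure D2:**
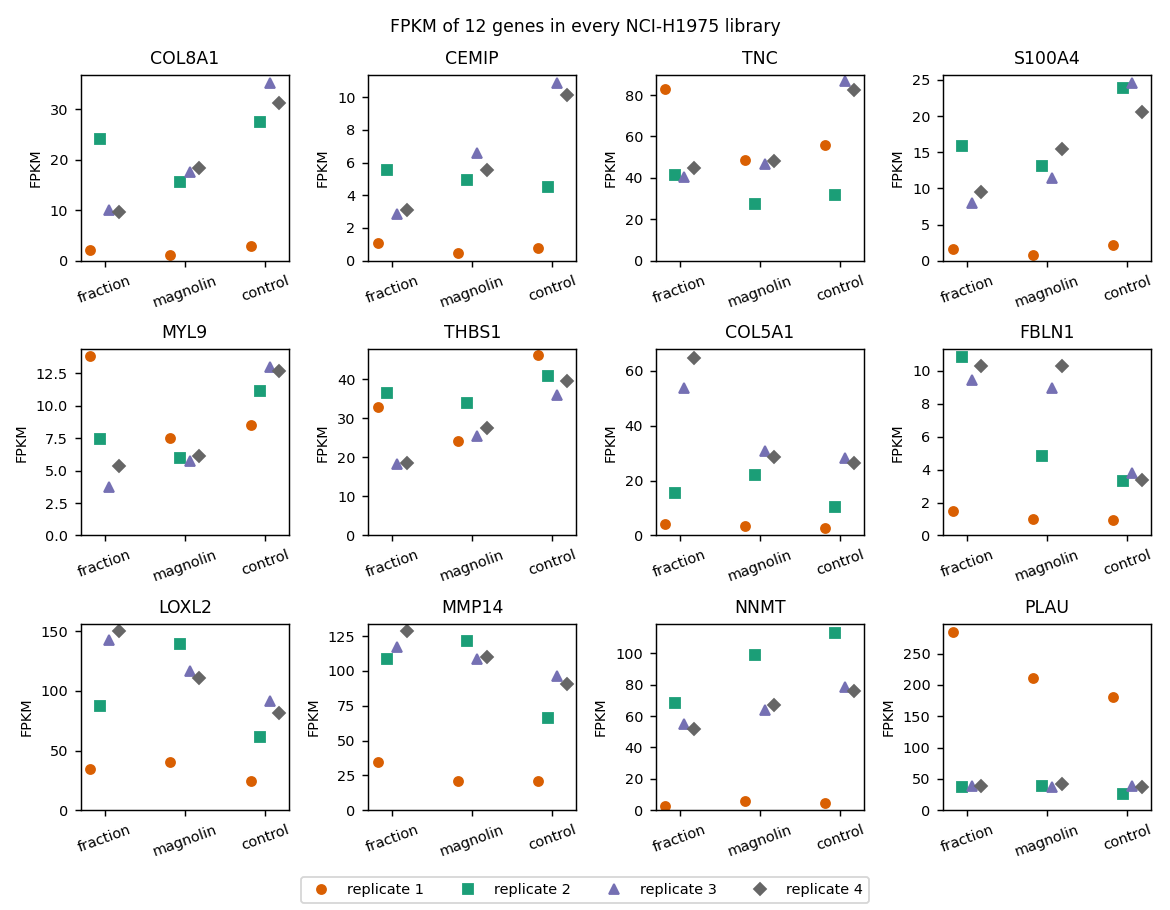
FPKM of 12 members in each of 12 NCI-H1975 libraries, fraction left, magnolin in the middle and control right, with a marker and colour for each replicate number and linear axes from 0. In replicates 3 and 4 COL8A1 is at 9.94 and 9.59 FPKM in fraction cells, against 35.2 and 31.2 FPKM in control cells, and replicate 1 (circles) departs from the rest in most panels.

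Of 6 matrix glycoproteins, 4 fell and 1 rose. TNC, tenascin-C, an anti-adhesive matrix protein of remodelling tissue, had 83.0, 41.2, 40.2 and 44.9 FPKM in fraction cells, 48.5, 27.5, 46.5 and 48.2 FPKM in magnolin cells and 55.6, 31.7, 87.0 and 82.4 FPKM in control cells. Control stood above both treated groups in replicates 3 and 4, a log2 change of -0.98 (SE 0.08, adjusted p = 0.00144) for the fraction, while the fraction was the highest group in replicates 1 and 2. THBS1, thrombospondin-1, which can activate latent TGF-beta, had 33.0, 36.5, 18.4 and 18.5 FPKM in fraction cells, 24.2, 34.02, 25.4 and 27.5 FPKM in magnolin cells and 46.3, 40.9, 36.0 and 39.7 FPKM in control cells. Control was the highest group at all 4 numbers, and the change in replicates 3 and 4 was -0.995 (SE 0.081, adjusted p = 0.00144). SPARC, a collagen-binding matricellular protein, had 12.6, 64.9, 37.5 and 37.1 FPKM in fraction cells, 10.4, 60.8, 64.3 and 62.8 FPKM in magnolin cells and 12.5, 63.4, 66.3 and 65.0 FPKM in control cells. The fraction alone was low in replicates 3 and 4, a log2 change of -0.80 (SE 0.062, adjusted p = 0.00126), and in replicates 1 and 2 the 3 groups lay close together.

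FN1, fibronectin, had 46.9, 41.8, 55.6 and 53.7 FPKM in fraction cells, 30.5, 45.0, 53.7 and 48.9 FPKM in magnolin cells and 45.0, 33.6, 74.9 and 73.4 FPKM in control cells. Both treated groups lay under control in replicates 3 and 4, a log2 change of -0.43 (SE 0.073, adjusted p = 0.0124) for the fraction. FBLN1, fibulin-1, an elastic-fibre and basement membrane glycoprotein, had 1.49, 10.8, 9.43 and 10.3 FPKM in fraction cells, 0.977, 4.85, 8.94 and 10.3 FPKM in magnolin cells and 0.952, 3.29, 3.79 and 3.37 FPKM in control cells. Fraction was higher than control at all 4 numbers, by 1.25 (SE 0.10, adjusted p = 0.00151) in replicates 3 and 4. TGFBI, a TGF-beta-induced adhesion protein, had 94.9, 120.4, 110.0 and 102 FPKM in fraction cells, 124, 155, 127 and 122 FPKM in magnolin cells and 102, 106, 102 and 101 FPKM in control cells, with magnolin highest at every number and the fraction not passing, a log2 change of 0.06 (SE 0.069, adjusted p = 0.611).

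Both crosslinking enzymes are members. LOXL2, a lysyl oxidase-like enzyme, had 34.2, 87.4, 143 and 149.9 FPKM in fraction cells, 40.3, 139.6, 117 and 111 FPKM in magnolin cells and 24.1, 61.4, 91.2 and 81.8 FPKM in control cells. Both treated groups were above control at all 4 numbers, and the fraction change in replicates 3 and 4 was 0.75 (SE 0.08, adjusted p = 0.00296). LOX, lysyl oxidase itself, had 7.22, 31.2, 19.2 and 16.7 FPKM in fraction cells, 4.39, 18.4, 21.0 and 19.5 FPKM in magnolin cells and 9.66, 24.6, 23.4 and 21.2 FPKM in control cells and did not pass, a log2 change of -0.30 (SE 0.10, adjusted p = 0.0852).

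Of 5 turnover members, MMP14 rose and CEMIP fell. MMP14, a membrane-bound collagenase, had 34.6, 109, 117 and 128 FPKM in fraction cells, 21.0, 121, 109 and 109.6 FPKM in magnolin cells and 21.2, 66.4, 96.5 and 90.8 FPKM in control cells. In replicates 3 and 4 the fraction lay above magnolin and magnolin above control, a log2 change of 0.39 (SE 0.073, adjusted p = 0.0176) for the fraction. CEMIP, which takes part in hyaluronan breakdown, had 1.06, 5.54, 2.87 and 3.08 FPKM in fraction cells, 0.439, 4.92, 6.59 and 5.56 FPKM in magnolin cells and 0.796, 4.53, 10.9 and 10.1 FPKM in control cells. Fraction was lowest and control highest without overlap in replicates 3 and 4, a log2 change of -1.53 (SE 0.10, adjusted p = 0.000833), but fraction was the highest group in replicates 1 and 2. The antisense neighbour MESD overlaps CEMIP and reached 10.9 FPKM, and no source used here says whether counting used strand.

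PLAU, the urokinase plasminogen activator, had 284, 37.0, 39.0 and 39.0 FPKM in fraction cells, 212, 38.8, 36.4 and 41.5 FPKM in magnolin cells and 180.4, 26.1, 38.5 and 36.9 FPKM in control cells, with replicate 1 far above the rest in each group and replicates 3 and 4 of all groups close together, a log2 change of 0.05 (SE 0.083, adjusted p = 0.709). PLAUR, its receptor, had 36.9, 14.8, 9.74 and 12.8 FPKM in fraction cells, 30.3, 10.4, 9.94 and 9.04 FPKM in magnolin cells and 24.5, 11.9, 9.13 and 9.43 FPKM in control cells and did not pass, a log2 change of 0.24 (SE 0.13, adjusted p = 0.243). MMP1, interstitial collagenase, had 29.0, 3.88, 2.40 and 3.23 FPKM in fraction cells, 16.7, 0.867, 0.598 and 1.72 FPKM in magnolin cells and 16.7, 1.47, 1.29 and 1.45 FPKM in control cells. Fraction was the highest group at every number, but the change of 0.68 (SE 0.27, adjusted p = 0.136) in replicates 3 and 4 did not pass.

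Among the 3 receptors, ITGB3, the beta chain of a vitronectin receptor, had 0.524, 0.613, 2.89 and 2.41 FPKM in fraction cells, 0.822, 1.81, 1.92 and 1.51 FPKM in magnolin cells and 0.673, 0.542, 1.47 and 1.53 FPKM in control cells. Fraction lay above control in replicates 3 and 4, a log2 change of 0.54 (SE 0.14, adjusted p = 0.0468), a call lost with the replicate number as a block (adjusted p = 0.0674). ITGA5, the alpha chain of the fibronectin receptor, had 50.3, 45.6, 58.5 and 58.5 FPKM in fraction cells, 38.2, 50.2, 53.0 and 49.9 FPKM in magnolin cells and 34.2, 32.3, 52.7 and 48.6 FPKM in control cells and did not pass, a log2 change of 0.21 (SE 0.073, adjusted p = 0.104). CD44, the hyaluronan receptor, had 66.3, 105, 85.2 and 74.8 FPKM in fraction cells, 64.6, 97.9, 93.2 and 99.5 FPKM in magnolin cells and 74.7, 91.7, 85.7 and 87.3 FPKM in control cells and did not pass either, a log2 change of -0.12 (SE 0.084, adjusted p = 0.381).

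The count of 20 depended on single libraries. With the replicate number as a block it was 19, 7 higher and 12 lower, where 14.7% of all genes passed, 6.02% higher and 8.68% lower. It was 12 without control replicate 3 (6.62% of all genes) and 13 without control replicate 4 (5.07% of all genes), and 11 members passed in each of 6 fits that left out a library (COL8A1, CEMIP, MYL9, S100A4, COL1A2, THBS1, TNC and SPARC lower, FBLN1, COL5A1 and LOXL2 higher). When all 12 libraries were fitted with a block for the replicate number, 0 of 31 members passed, where 0.156% of all genes passed. At an unadjusted p under 0.05 there were 16 members and 17.7% of all genes. The 20 changes kept their sign there, at about the same size for NNMT (-0.59), TAGLN (-0.56) and FBLN1 (1.08) and smaller for COL8A1 (-0.96), CEMIP (-0.66) and TNC (-0.25). As that fit holds the replicate 3 and 4 libraries that gave the 20 calls, the kept signs are no separate support. In both replicate 1 and replicate 2, fraction lay above control in TNC, CEMIP, COL1A2, COL1A1, FN1 and SPARC, and under it in VIM. Some of these margins were small, and all had the sign opposite to replicates 3 and 4. The rest of the 20 did not turn at both numbers. With replicates 2, 3 and 4 alone, a fit chosen after seeing the data, FBLN1 was the single member to pass (log2 change 1.32, adjusted p = 0.0469), where 0.69% of all genes passed.

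Promoter windows of RefSeq (GRCh38.p14), 250 bases before the start of a gene, were matched for 22 of the 34 members. Shown first are the pair of falling members whose windows hold the letters TATANAA (capitals; searched on both strands, no overlap with the other motifs), CEMIP at chr15:80779120-80779369 on the plus strand, 30 bases before the start, and TNC at chr9:115118158-115118407 on the minus strand, 29 bases before it; 8.779% of 27305 promoters hold these letters. CEMIP and TNC were the 2 of 22 matched member windows with these letters. The windows of SPARC, THBS1 and S100A4, which also fell, lack them, so the letters do not follow the direction of change. Also shown are the 2 members with the highest rises, COL5A1 at chr9:134641553-134641802 and FBLN1 at chr22:45502633-45502882. Both are on the plus strand, and none of the 4 motifs searched was found there.
CEMIP: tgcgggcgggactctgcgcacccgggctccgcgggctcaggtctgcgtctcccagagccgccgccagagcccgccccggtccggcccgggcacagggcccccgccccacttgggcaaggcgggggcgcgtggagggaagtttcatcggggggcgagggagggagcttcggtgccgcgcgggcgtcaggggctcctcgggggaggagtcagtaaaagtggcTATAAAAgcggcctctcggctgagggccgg
TNC: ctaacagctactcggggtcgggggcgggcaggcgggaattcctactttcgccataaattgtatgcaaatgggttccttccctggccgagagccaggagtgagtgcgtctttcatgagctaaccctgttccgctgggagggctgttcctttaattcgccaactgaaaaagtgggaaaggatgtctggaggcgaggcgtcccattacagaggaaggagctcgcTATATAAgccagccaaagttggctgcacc
COL5A1: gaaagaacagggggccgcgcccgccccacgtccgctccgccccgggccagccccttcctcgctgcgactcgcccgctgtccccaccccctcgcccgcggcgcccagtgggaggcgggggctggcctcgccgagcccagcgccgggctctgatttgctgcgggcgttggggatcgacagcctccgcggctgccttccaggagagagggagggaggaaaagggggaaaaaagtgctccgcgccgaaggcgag
FBLN1: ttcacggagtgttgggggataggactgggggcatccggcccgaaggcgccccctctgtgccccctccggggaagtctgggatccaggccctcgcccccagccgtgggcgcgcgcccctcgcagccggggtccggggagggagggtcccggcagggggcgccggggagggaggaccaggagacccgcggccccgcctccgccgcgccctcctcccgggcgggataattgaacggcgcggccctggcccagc

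A search for GGAATG, the core letters bound by TEAD factors, on both strands found it in the windows of CALD1, ITGA5, SPARC and THBS1, and in 11.9% of all promoters. SPARC is shown because it was low in the fraction alone, with the reverse complement in capitals 17 bases before the start (chr5:151686916-151687165, minus strand). CAGGTG, the E2 box bound by ZEB and SNAIL factors, was found for S100A4 and ZEB1 and in 17.51% of all promoters. These matches describe letters in a window and nothing about binding.
SPARC: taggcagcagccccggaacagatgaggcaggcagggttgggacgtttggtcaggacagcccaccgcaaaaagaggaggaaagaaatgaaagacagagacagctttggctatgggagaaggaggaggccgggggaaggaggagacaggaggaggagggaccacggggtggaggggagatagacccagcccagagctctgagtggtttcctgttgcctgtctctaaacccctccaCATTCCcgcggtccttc

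With magnolin, far fewer members passed. FBLN1 was higher, and COL8A1 and TNC were lower, than in control in replicates 3 and 4, so 3 of 31 members passed, where 0.627% of all genes tested passed, 0.252% higher and 0.375% lower. The log2 changes were those of FBLN1 (1.21, SE 0.10, adjusted p = 0.0182), COL8A1 (-0.85, SE 0.085, adjusted p = 0.0239) and TNC (-0.83, SE 0.08, adjusted p = 0.0226). With the replicate number as a block, where 0.293% of all genes passed (0.143% higher), FBLN1 passed (adjusted p = 0.0394), COL8A1 had an adjusted p of 0.0603 and TNC of 0.0540. When magnolin replicate 3, magnolin replicate 4, control replicate 3 or control replicate 4 was left out, 0 of all genes tested passed and so no member did (12 to 17 members at an unadjusted p under 0.05, limma). Without fraction replicate 3 or fraction replicate 4 the count was 5, where 1.09% and 0.987% of all genes passed. The members nearest to the threshold were lower in magnolin cells, namely FN1 (-0.52, SE 0.073, adjusted p = 0.0524), MYL9 (-0.997, SE 0.14, adjusted p = 0.0567) and CEMIP (-0.71, SE 0.10, adjusted p = 0.0571). The median log2 change was -0.13 over the tested members and 0.01 over all genes tested. The fraction and magnolin comparisons share their control libraries.

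**Figure D3:**
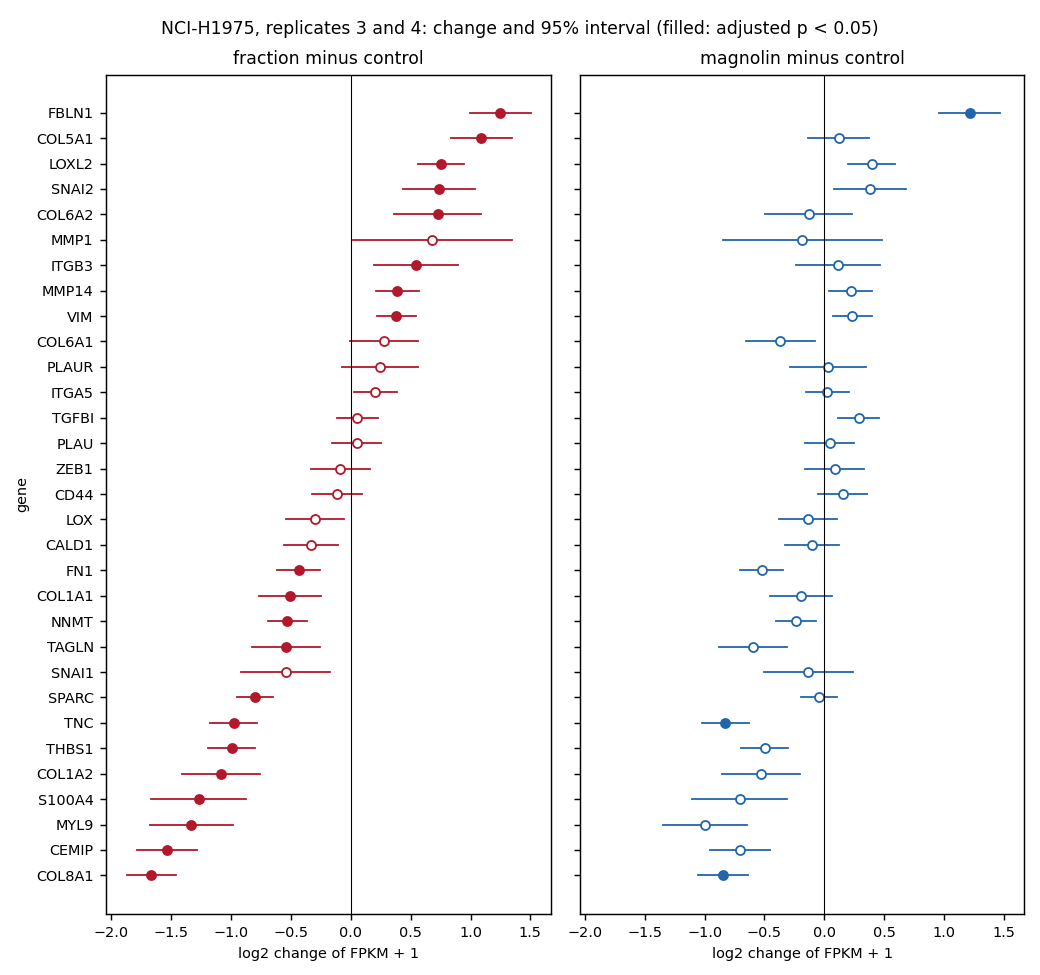
Change of 31 tested members in replicates 3 and 4, fraction minus control on the left and magnolin minus control on the right, on the log2(FPKM + 1) scale; points are fitted changes, bars their 95% intervals, and filled points passed the adjusted threshold. COL8A1 has the lowest point on the left at -1.66 and FBLN1 the highest at 1.25, and 3 points are filled on the right.

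Set against magnolin directly, the fraction differed in 10 of 31 members in replicates 3 and 4, 4 higher and 6 lower, where 14.9% of all genes tested passed, 5.55% higher and 9.36% lower. Collagens made up most of the higher ones: COL5A1 (0.97, SE 0.10, adjusted p = 0.00608), COL6A2 (0.86, SE 0.15, adjusted p = 0.0192) and COL6A1 (0.65, SE 0.12, adjusted p = 0.022), joined by LOXL2 (0.36, SE 0.08, adjusted p = 0.0362). Lower were CEMIP (-0.83, SE 0.10, adjusted p = 0.00862), COL8A1 (-0.82, SE 0.085, adjusted p = 0.00552), SPARC (-0.75, SE 0.062, adjusted p = 0.00292), COL1A2 (-0.56, SE 0.13, adjusted p = 0.0433), THBS1 (-0.50, SE 0.081, adjusted p = 0.0166) and NNMT (-0.29, SE 0.067, adjusted p = 0.0391). For FBLN1, which was higher than control with both treatments, the log2 difference between them was 0.04, with a 95% interval of -0.21 to 0.29. With the replicate block 7 passed, 3 higher and 4 lower, where 8.93% of all genes passed, 3.21% higher and 5.72% lower, and LOXL2 (adjusted p = 0.0626), COL1A2 (0.0607) and NNMT (0.0761) did not. The count was 3 without magnolin replicate 3 (2.04% of all genes), 2 without magnolin replicate 4 (1.57%), 13 without fraction replicate 3 (21.3%) and 7 without fraction replicate 4 (12.7%). SPARC was the member to pass in all 6 such fits.

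In replicates 1 and 2, none of 30 tested members differed between treatments in the fit without a block. That held for fraction against control, magnolin against control and fraction against magnolin, and 0 of all 13103 genes tested (0%) passed in any of them by limma. At an unadjusted p under 0.05 the genes numbered 107 for fraction against control, 255 for magnolin against control and 93 for fraction against magnolin, 0 of them members, and limma voom on rebuilt reads called 0 members too. The spread between the replicate numbers was large: the fraction change of COL8A1 was -0.25 with a 95% interval of -3.86 to 3.36. With the replicate number as a block, COL8A1 (log2 change -0.82, SE 0.18, adjusted p = 0.0420) and S100A4 (log2 change -0.81, SE 0.18, adjusted p = 0.0434) were lower with magnolin than in control, where 0.992% of all genes passed, 0.511% lower. In the same blocked fit MMP1 was higher with the fraction than with magnolin (log2 change 1.07, SE 0.19, adjusted p = 0.0382), where 0.183% of all genes passed, 0.114% higher, and no member differed between fraction and control (0.183% of all genes passed; at an unadjusted p under 0.05 there were 12 of 30 members and 6.11% of all genes). Within both replicate numbers COL8A1 and S100A4 were lower in magnolin than in control, and MMP1 was higher in fraction than in magnolin. In the fit without a block, where a lone library is set against the mean of both numbers, leaving out magnolin replicate 1 turned the magnolin changes to 0.63 for COL8A1 and 0.67 for S100A4, and leaving out control replicate 2 turned them to 0.60 and 0.67. The MMP1 change of fraction against magnolin was -0.24 without fraction replicate 1 and -0.55 without magnolin replicate 2.

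The fraction effect was then compared between the pairs of replicates. Without a block, 0 of 31 members differed in their fraction effect (4 at an unadjusted p under 0.05, limma; 0% of 15428 genes passed), and none in their magnolin effect. With the replicate number as a block, the fraction effect was lower in replicates 3 and 4 than in replicates 1 and 2 for CEMIP by -1.75 (SE 0.20), for TNC by -1.45 (SE 0.17) and for COL8A1 by -1.42 (SE 0.16) on the log2 scale, each with an adjusted p of 0.0295, where 0.227% of all genes passed, 0.156% lower. In replicate 2 the fraction lay close to control in COL8A1 and above it in CEMIP and TNC. No member differed in its magnolin effect with the block.

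Replicates 1 and 2 differed in most members. Against replicate 2, replicate 1 had lower collagen and crosslinking members and higher PLAU, PLAUR and MMP1, over 3 libraries each with the treatment as a covariate. The 3 libraries of a number are its 3 treatment groups. The p-values therefore measure the spread between libraries within replicates 1 and 2, and not a spread between separate cultures, which the labels do not name. Of 30 members tested, 23 passed, 18 lower and 5 higher, where 39.7% of all genes passed, 19.3% lower and 20.5% higher. The median log2 change was -0.71 over the tested members and 0.00 over all genes tested. TAGLN passed the low-value filter through replicate 2 alone, the side where it was high. Without it 22 of 29 passed, 17 lower and 5 higher.

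The lowest was NNMT, at 2.80, 5.82 and 4.75 FPKM in replicate 1 of fraction, magnolin and control, against 68.1, 98.7 and 113 FPKM in replicate 2 in the same order (-4.12, SE 0.16, adjusted p = 7.16e-10). Among collagens, 5 of 6 tested were lower: COL8A1 (-2.91, SE 0.14, adjusted p = 2.43e-09), COL1A2 (-2.81, SE 0.15, adjusted p = 4.94e-09), COL5A1 (-1.86, SE 0.17, adjusted p = 9.68e-07), COL6A1 (-1.004, SE 0.17, adjusted p = 0.000288) and COL6A2 (-0.68, SE 0.14, adjusted p = 0.00156). Both crosslinking enzymes were lower, LOX (-1.70, SE 0.17, adjusted p = 2.71e-06) and LOXL2 (-1.47, SE 0.18, adjusted p = 1.52e-05). Also lower were S100A4, SPARC, MMP14, CEMIP, FBLN1, TAGLN, ZEB1, VIM, CD44 and CALD1, with log2 changes of -2.87 to -0.45.

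Higher in replicate 1 were 3 of 5 turnover genes. MMP1 had 29.0, 16.7 and 16.7 FPKM in replicate 1 of fraction, magnolin and control, against 3.88, 0.867 and 1.47 FPKM in replicate 2 in the same order (2.90, SE 0.16, adjusted p = 5.74e-09). PLAU had 284, 212 and 180.4 FPKM in replicate 1, against 37.0, 38.8 and 26.1 FPKM in replicate 2 (2.69, SE 0.18, adjusted p = 4.18e-08). Its receptor PLAUR (1.24, SE 0.16, adjusted p = 3.78e-05), SNAI1 (1.25, SE 0.16, adjusted p = 1.98e-05) and TNC (0.86, SE 0.17, adjusted p = 0.00096) completed the set. In PLAU, PLAUR, MMP1 and SNAI1 the replicate 1 libraries lay above every other NCI-H1975 library. The promoter of PLAUR is shown because it was the sole matched member window with an AP-1 motif (TGANTCA, both strands, in capitals 186 bases before the start; found in 6.596% of all promoters), at chr19:43670170-43670419 on the minus strand.
PLAUR: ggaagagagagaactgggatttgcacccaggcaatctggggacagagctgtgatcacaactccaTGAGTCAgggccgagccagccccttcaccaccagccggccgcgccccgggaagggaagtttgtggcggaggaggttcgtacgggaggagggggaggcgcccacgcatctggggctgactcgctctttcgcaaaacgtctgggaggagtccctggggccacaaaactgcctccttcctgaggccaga

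**Figure D4:**
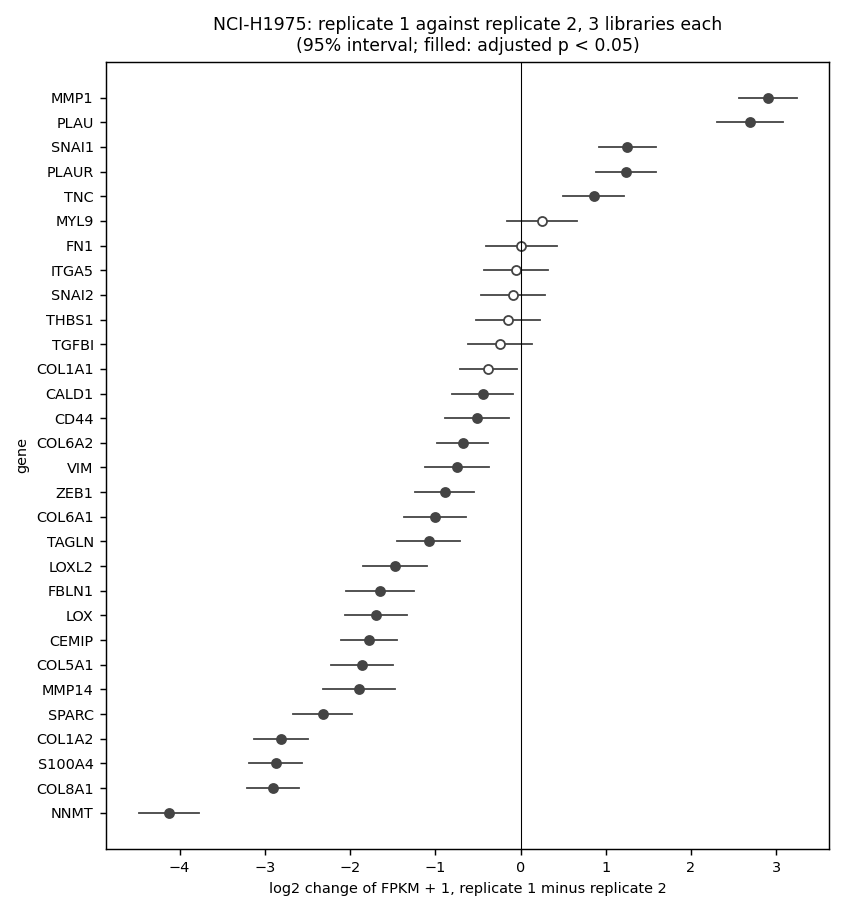
Change of 30 tested members between replicate 1 and replicate 2, 3 libraries each, on the log2(FPKM + 1) scale; points are fitted changes with treatment as a covariate, bars their 95% intervals, and filled points passed the adjusted threshold. NNMT is the lowest at -4.12 and MMP1 the highest at 2.90, and 18 filled points lie left of 0.

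The epithelial counterpart genes moved in the other direction between these replicates: 23 of 26 tested were higher in replicate 1 and 0 lower, where 20.5% of all genes were higher and 19.3% lower. Their median log2 change was 1.88, led by EPCAM (3.84, adjusted p = 1.47e-09), CLDN7 (3.58, adjusted p = 5.74e-09) and SPINT1 (3.44, adjusted p = 1.59e-09). A gene could pass the low-value filter through replicate 1 alone, the side where it was high, and this list was not checked for that. It had 26 genes tested here and 22 in replicates 3 and 4, so the count of 23 and the median are given as a description. EPCAM had already been used above to set replicate 1 apart, so its lead here is no separate support. CDH1, E-cadherin, had 74.2, 54.2 and 70.9 FPKM in replicate 1 of fraction, magnolin and control, against 5.92, 4.88 and 5.31 FPKM in replicate 2 in the same order. The summed level of 6 immune markers was 4.71 to 6.61 FPKM in replicate 1, with CD79A and CSF1R at FPKM 1 or more and the other 4 below it, against 0.994 to 1.47 FPKM in replicate 2. The 9 fibroblast markers summed to 0.535 to 0.853 FPKM in replicate 1, against 1.22 to 1.56 FPKM in replicate 2. The part of these genes in the members' differences was not tested.

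HCC827 values are set beside NCI-H1975 as a description, since the tables were normalized separately. VIM had 4.01 and 2.53 FPKM in HCC827, against 107 to 209.9 FPKM in the 12 NCI-H1975 libraries. MMP14 had 0.340 and 0.375 FPKM in HCC827, against 21.0 to 128 FPKM in NCI-H1975, and COL1A2 was listed at 0 in both HCC827 libraries. COL8A1 (0.0451 and 0.0368 FPKM), COL5A1 (0.683 and 0.800 FPKM), LOX (0.864 and 0.718 FPKM) and CEMIP (0.398 and 0.356 FPKM) were also under 1 FPKM there. Some members were high in HCC827: PLAU had 164 and 137 FPKM, under the 180.4 to 284 FPKM of NCI-H1975 replicate 1 and above the 26.1 to 41.5 FPKM of replicates 2 to 4. TNC had 119 and 120.5 FPKM there, and NNMT, TGFBI and FN1 had 52.6 and 44.3, 118 and 106 and 40.4 and 41.5 FPKM.

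TWIST2, a basic helix-loop-helix factor of mesoderm, had 9.27 and 7.87 FPKM in HCC827 and was listed at 0 in all 12 NCI-H1975 libraries. COL4A1 and COL4A2, the chains of basement membrane type IV collagen, had 1.59 and 1.33 FPKM and 6.85 and 6.43 FPKM in HCC827, and at most 0.0127 and 0.00313 FPKM in NCI-H1975. By their RefSeq starts the pair lie head to head, so the 126 bases between these starts, chr13:110307158-110307283 in GRCh38.p14, are shown on the plus strand. No capitals were set. In the gene coordinates of the deposited values the genes overlap, COL4A1 ending at 110307233 and COL4A2 starting at 110305812. How reads were shared there is uncertain.
COL4A1-COL4A2: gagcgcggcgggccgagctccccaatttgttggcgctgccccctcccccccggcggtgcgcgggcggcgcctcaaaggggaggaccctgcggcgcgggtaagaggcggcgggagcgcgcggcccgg

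Further genes of the same processes were counted for the fraction against control in replicates 3 and 4, where 19.9% of all genes passed. Of 9 other integrins tested, 5 rose and 1 fell, with ITGB4 (1.35, adjusted p = 0.00135), ITGA3 (1.29, adjusted p = 0.000833) and ITGB5 (0.64, adjusted p = 0.00749) as the largest changes. Of 9 other collagens, 3 rose and 3 fell, among them COL4A6 (-1.01, adjusted p = 0.00393), COL7A1 of anchoring fibrils (0.83, adjusted p = 0.0124) and COL17A1 of hemidesmosomes (-0.77, adjusted p = 0.00668). Of 14 collagen-processing genes, 4 rose and 3 fell, with the prolyl hydroxylases P4HA1 (0.85, adjusted p = 0.00508) and P3H2 (-0.85, adjusted p = 0.00178) and the lysyl oxidase-like LOXL4 (-0.81, adjusted p = 0.0242) as examples. Of 14 basement membrane and other glycoprotein genes, 3 rose and 3 fell: the largest changes were in CTGF (-1.34, adjusted p = 0.00148), LAMB1 (-1.18, adjusted p = 0.00508) and EFEMP1 (-1.01, adjusted p = 0.00201).

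Of 17 other proteases and inhibitors, 7 rose and 5 fell, led by the metalloproteases MMP24 (-1.44, adjusted p = 0.00102), ADAM8 (1.26, adjusted p = 0.00398) and MMP17 (1.20, adjusted p = 0.00233). TGF-beta is the classical inducer of matrix genes. Of 19 pathway genes 4 rose and 4 fell, the ligand TGFB2 (-1.07, adjusted p = 0.00206), the inhibitory SMAD7 (0.93, adjusted p = 0.00439) and the co-receptor TGFBR3 (-0.86, adjusted p = 0.00365) having the largest changes. Of 21 actin and contractile genes 3 rose and 6 fell, with CNN2 (-0.82, adjusted p = 0.00493), FLNA (0.82, adjusted p = 0.00452) and TGFB1I1 (-0.58, adjusted p = 0.0338). Of 22 epithelial counterpart genes 1 rose and 6 fell, the largest changes being in the epithelial factor ELF3 (-1.31, adjusted p = 0.00118), the junction protein TJP3 (-0.97, adjusted p = 0.041) and keratin KRT8 (-0.87, adjusted p = 0.000833). Blocking by replicate number, where 14.7% of all genes passed, changed these counts. There were 3 higher and 1 lower for the other integrins, 1 and 3 for the other collagens, 3 and 3 for collagen processing, and 2 and 3 for basement membrane and glycoprotein genes. There were 7 higher and 4 lower for proteases and inhibitors, 1 and 4 for the TGF-beta pathway, 1 and 5 for actin and contractile genes, and 0 and 5 for epithelial genes. Of the genes named here TGFB1I1 (adjusted p = 0.0544) and TJP3 (adjusted p = 0.0641) lost the call with the block.

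With magnolin, where 0.627% of all genes passed, 0 genes of the other collagen, collagen-processing, integrin, TGF-beta and actin lists passed. CTGF fell (-0.92, adjusted p = 0.0355), and of 17 proteases and inhibitors MMP24 fell (-0.995, adjusted p = 0.0258) and SERPINB2 rose (0.85, adjusted p = 0.0372). Of 22 epithelial genes 4 fell, MUC1 (-1.05, adjusted p = 0.0239), CDH3 (-0.95, adjusted p = 0.0393) and KRT8 (-0.53, adjusted p = 0.0276) having the largest changes. In the blocked fit, where 0.293% of all genes passed, CTGF (adjusted p = 0.0759), MMP24 (adjusted p = 0.0626), CDH3 and KRT8 (adjusted p = 0.0759 each) lost the call. SERPINB2 kept it and MUC1 was the single epithelial gene to pass. Among cell type markers, the 6 endothelial markers summed to 1.12 to 1.13 FPKM in fraction, 1.64 to 1.97 FPKM in magnolin and 4.48 to 6.57 FPKM in control of replicates 3 and 4. The endothelial cadherin CDH5 made up most of the control sum, at 0.172 and 0.0498 FPKM in fraction, 0.775 and 0.616 FPKM in magnolin and 4.39 and 3.07 FPKM in control. PECAM1 and CLDN5 were also lower in fraction than in control. KDR was higher, at 0.168 and 0.203 FPKM in fraction, 0.117 and 0.0644 FPKM in magnolin and 0.0965 and 0.0635 FPKM in control. VWF and TIE1 had at most 0.0633 FPKM in these libraries. Fibroblast markers summed to 0.424 to 0.505 FPKM in fraction, 0.704 to 0.778 FPKM in magnolin and 1.46 to 1.95 FPKM in control of those replicates, each marker being under 1 FPKM. Their part in the members' falls was not tested.

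**Figure D5:**
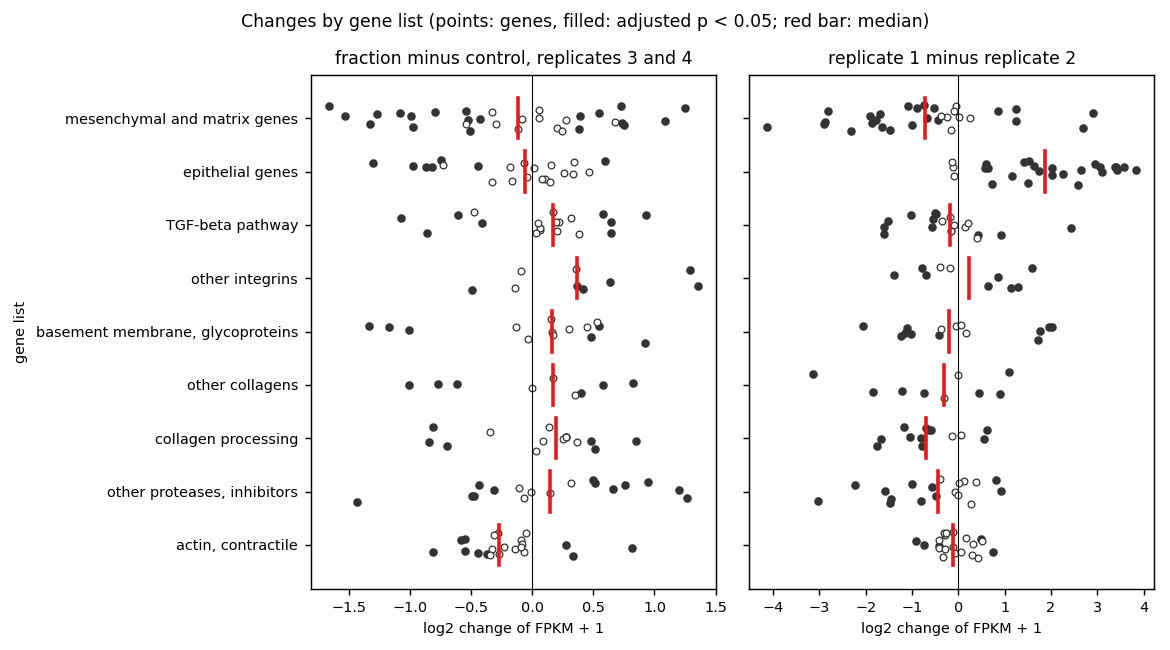
Change of the members and of 8 other gene lists, fraction minus control in replicates 3 and 4 on the left and replicate 1 minus replicate 2 on the right, on the log2(FPKM + 1) scale; points are tested genes (filled where they passed), red bars are list medians, and vertical scatter has no meaning. The epithelial list has its median at 1.88 on the right and -0.06 on the left, and the members at -0.71 and -0.12.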

How the data were processed

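Per the labels' protocols, RNA was quality-checked by bioanalyzer before library preparation with an NEB method. The authors deposited FPKM per gene. The build is hg38, per the submitters' processing notes, and the aligner, the counter and the strand setting were not given in the sources used here. All 58735 identifiers and coordinates matched GENCODE release 29. Deposited FPKM was multiplied by gene length and divided by the smallest such product above 0 in its library, which was assumed to be a single read. This gave whole reads (tolerance 0.05, up to 2000 reads), which were used for depth and the voom alternative. Tables were normalized separately, and the median ratio over genes above 0 was equal across the libraries within a table. In the HCC827 table, 2 columns matched no label and were not used.

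Genes that reached FPKM 1 in at least 2 libraries of a table were tested on log2(FPKM + 1) with limma 3.58.1 in R 4.3.3 (empirical Bayes with a mean trend, the 3 groups sharing 1 spread) with Benjamini-Hochberg adjustment at 0.05. The fit was also run on simulated data with noise drawn separately for each library. Apart from the changes put in, those data carried no shared effect of a replicate number, so the run is not used here as support. Fold changes on this scale understate low genes. The groups share replicate numbers. Deviations from group means correlated at 0.273 to 0.870 over 12 same-number pairs (13066 genes), and 9 of 12 correlated best with their own number. The exceptions were fraction with magnolin and fraction with control at number 4, and magnolin with control at number 3. The pairing is thus less clear in replicates 3 and 4. The group means were taken over all 4 numbers and so over both tables. Differences between the tables, and of replicate 1 from the rest, therefore enter these correlations, which cannot tell them from pairing. The main treatment fits used no block. On this check alone the number served as a block in an alternative fit, with blocked values printed where a call or count of a comparison changes. Since no label names separate cultures, p-values measure the spread between these libraries, which may be technical. Counting error limits low genes at this depth.

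The members and the lists were chosen with earlier results of these data known. Named with values in every library were members called in any comparison and the 2 highest of each role; of other lists, up to 3 called genes with the largest change are named, and genes just short of the threshold were chosen after their values were seen. Older symbols were matched for 2 of 204 list entries. Alternatives covered pseudocount, filter, block, voom, scaling, groups alone, joint fits and single libraries left out.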

Additional observations from a re-analysis of the deposited data

Results flagged for a closer look

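In each NCI-H1975 group of 4 libraries, the highest or lowest library of each of 31 named members was set against the rest, and 36 of 93 groups had a library far from the others (its gap to the nearest, over the range of the group, was above Dixon's 95% critical value). Chance would give about 1 in 20 such groups if the 4 libraries were separate draws from a single population. Here each group joins libraries from separately normalized tables, and the groups of a gene share replicate numbers. The 36 of 93 can therefore not be set against 1 in 20, and the count is a description. In 32 of the 36 the library was replicate 1.

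Libraries that met this measure are given here. Replicate 1 was the extreme of all 3 groups in each gene given for it but COL1A1 (not in fraction) and TNC (not in control). Low in replicate 1 were NNMT (2.80 FPKM in fraction, 5.82 in magnolin and 4.75 in control), S100A4 (0.829 FPKM in magnolin and 2.19 in control), COL8A1 (1.21 FPKM in magnolin and 2.97 in control), SPARC (10.4 FPKM in magnolin and 12.5 in control), LOX (4.39 FPKM in magnolin and 9.66 in control), FBLN1 (1.49 FPKM in fraction and 0.952 in control) and MMP14 (34.6 FPKM in fraction and 21.0 in magnolin). In the fraction the measure was met by ZEB1 at 1.13 FPKM and VIM at 111 FPKM in replicate 1, which was the lowest in the other groups too. In magnolin it was met in replicate 1 by CALD1 at 16.0 FPKM, COL1A1 at 1.39 FPKM, COL1A2 at 0.543 FPKM, COL5A1 at 3.50 FPKM, COL6A1 at 10.6 FPKM, CEMIP at 0.439 FPKM and CD44 at 64.6 FPKM. In control it was met by TAGLN in replicate 1, at 0.794 FPKM.

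High in replicate 1 were PLAU (284 FPKM in fraction and 212 in magnolin), MMP1 (29.0 FPKM in fraction and 16.7 in control), SNAI1 (22.4 FPKM in fraction), TNC (83.0 FPKM in fraction) and PLAUR (30.3 FPKM in magnolin). The other 4 groups concerned SNAI2, high at 10.9 FPKM in fraction replicate 3, TNC, low at 27.5 FPKM in magnolin replicate 2, and TGFBI, high at 155 FPKM in magnolin replicate 2 and 106 FPKM in control replicate 2. Why replicate 1 stood apart was not tested.

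With the replicate number as a block, the fraction effect differed between the pairs of replicates in 3 members: it was lower in replicates 3 and 4 than in replicates 1 and 2 by -1.75 for CEMIP, -1.45 for TNC and -1.42 for COL8A1 on the log2 scale (limma, adjusted p = 0.0295 each). Without the block none of them passed.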

How the results depend on the processing

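Counts of members called in replicates 3 and 4, out of 31 tested (43 listed genes without a filter), moved as follows, with the share of all genes called in brackets. For fraction against control (20; 19.9%) they were 0 with all 12 libraries and the replicate block (0.156%) and 1 with replicates 2, 3 and 4 and the replicate block (0.69%), a fit chosen after seeing the data, and 12 to 20 when a library was left out. Pseudocount 0.1, no filter, the replicate block alone (19), voom and both rescalings stayed within 1.5 times. For magnolin against control (3; 0.627%) they were 0 without a filter (0%), 1 with the replicate block (0.293%), 12 with voom (3.93%), 5 with the 2 groups alone (1.21%), 0 in the joint fit (0%), 0 with replicates 2, 3 and 4 (0%), and 0 to 5 when a library was left out. For fraction against magnolin (10; 14.9%) they were 5 without a filter (2.23%), 16 with voom (22.6%), 0 with replicates 2, 3 and 4 (0%), and 2 to 13 when a library was left out.

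In replicates 1 and 2, where no member was called, the replicate block gave 2 for magnolin against control (0.992% of all genes) and 1 for fraction against magnolin (0.183%). Replicates 2, 3 and 4 gave 1 for fraction against control (0.69%). The blocked test of the difference in fraction effect between replicate pairs gave 3 members (0.227%) against 0 (0%). The count between replicates 1 and 2 (23; 39.7%) was 20 to 24 when a library was left out, where 25.6% to 34.3% of all genes passed. Changes that turned sign were all in replicates 1 and 2 without a library: for magnolin against control COL8A1 was 0.63 without magnolin replicate 1 and 0.60 without control replicate 2, and S100A4 was 0.67 in each, over ranges of -2.27 to 0.63 and -2.29 to 0.67; for fraction against magnolin MMP1 was -0.24 without fraction replicate 1 and -0.55 without magnolin replicate 2, over a range of -0.55 to 2.70. In those fits a lone library is set against the mean of both numbers, which differ in these genes, and is assumed to vary like the other groups. Within each number the signs did not turn. Of the named members' values, 366 kept their direction and side of the threshold under other settings, 88 lost the call and 6 gained it; with a library left out, 274 kept it, 74 lost it and 6 turned sign. The planned comparison of resistant with parental HCC827 cells was not run, since no column matched the resistant label. Rescaling to the median ratio over all genes left every value as it was, since that ratio was equal within a table. Its entries are counted among the 366 though they could not change. The cause of these differences was not tested. Low members rest on fewer reads. In the NCI-H1975 libraries of replicates 3 and 4, MMP1 had 20 to 105 rebuilt reads, ITGB3 110 to 207 and TAGLN 156 to 308. The part of counting error in their changes was not tested.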

Other observations

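Set against magnolin, the fraction in replicates 3 and 4 differed in further matrix and epithelial genes, where 14.9% of all genes tested passed. Of 22 epithelial genes 8 were higher and 2 lower with the fraction, among them CLDN7 (0.91, adjusted p = 0.0183), SPINT1 (0.71, adjusted p = 0.0157) and ELF3 (-0.77, adjusted p = 0.00974). Of 17 proteases and inhibitors 7 were higher and 3 lower, led by ADAM8 (1.01, adjusted p = 0.0129), MMP17 (0.82, adjusted p = 0.012) and TIMP4 (0.64, adjusted p = 0.016). Of 9 other integrins 3 were higher and 2 lower, with ITGB4 (1.35, adjusted p = 0.0026), ITGA3 (0.998, adjusted p = 0.00356) and ITGAV (-0.48, adjusted p = 0.0179). Of 14 basement membrane and glycoprotein genes 4 were higher and 1 lower, with EFEMP1 (-0.70, adjusted p = 0.00976), LAMB2 (0.70, adjusted p = 0.015) and AGRN (0.65, adjusted p = 0.0483). Of 19 TGF-beta pathway genes 4 were higher and 4 lower, with LTBP4 (0.73, adjusted p = 0.0246), LTBP3 (0.71, adjusted p = 0.0312) and PMEPA1 (0.68, adjusted p = 0.035). Of 21 actin and contractile genes 4 were higher and 5 lower, with FLNA (0.81, adjusted p = 0.00857), TAGLN2 (-0.55, adjusted p = 0.00742) and TPM3 (-0.50, adjusted p = 0.0104). COL4A6 (-0.66, adjusted p = 0.0203) was lower and COL7A1 (0.61, adjusted p = 0.0384) higher among 9 other collagens, and P3H2 (-0.53, adjusted p = 0.0112) and PLOD2 (-0.39, adjusted p = 0.0497) were lower among 14 collagen-processing genes. A block for the replicate number, under which 8.93% of all genes passed, changed these counts. They were 4 higher and 2 lower for epithelial genes, 7 and 1 for proteases and inhibitors, 2 and 1 for the other integrins, and 3 and 1 for basement membrane and glycoprotein genes. They were 2 higher and 4 lower for the TGF-beta pathway, 1 and 2 for actin and contractile genes, 0 and 1 for the other collagens and 0 and 1 for collagen processing. AGRN, LTBP3, PMEPA1, COL7A1 and PLOD2 lost the call there, with adjusted p of 0.0559 to 0.0798.

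Between replicate 1 and replicate 2, 9 of 13 collagen-processing genes tested were lower and 2 higher, the largest changes being in the collagen chaperone SERPINH1 (-1.75, adjusted p = 2.5e-06), COLGALT1 (-1.67, adjusted p = 4.04e-06) and P3H2 (-1.18, adjusted p = 7.08e-05), where 39.7% of all genes passed. Of 18 proteases and inhibitors 9 were lower and 2 higher, led by SERPINB2 (-3.02, adjusted p = 2.11e-08), ADAMTS9 (-2.24, adjusted p = 5.61e-08) and TIMP4 (-1.59, adjusted p = 6.26e-06). Of 9 other collagens 4 were lower and 3 higher, with COL12A1 (-3.14, adjusted p = 8.13e-09), COL4A5 (-1.85, adjusted p = 3.23e-06) and COL4A6 (-1.22, adjusted p = 6.33e-05). Of 14 basement membrane and glycoprotein genes 6 were lower and 4 higher, with FBLN2 (-2.06, adjusted p = 1.74e-07) lower and the laminin chain LAMB1 (1.96, adjusted p = 1.02e-07) higher. Of 19 TGF-beta pathway genes 8 were lower and 3 higher, with PMEPA1 (2.42, adjusted p = 2.44e-08), BAMBI (-1.61, adjusted p = 6.93e-07) and TGFBR3 (-1.59, adjusted p = 3.36e-06). Of 10 other integrins 5 were higher and 3 lower, with ITGB4 (1.59, adjusted p = 1.89e-05), ITGA11 (-1.38, adjusted p = 6.36e-05) and ITGA2 (1.28, adjusted p = 0.000123), and of 21 actin and contractile genes 2 were higher and 3 lower, with TPM4 (-0.92, adjusted p = 0.000759), TAGLN2 (-0.75, adjusted p = 0.00397) and ACTN4 (0.74, adjusted p = 0.00621). These lists were not checked for genes that passed the low-value filter through a single replicate number. The p-values between replicates 1 and 2 measure the spread between libraries within these numbers, whose 3 libraries are the 3 treatment groups. Numbers in brackets are log2 changes and adjusted p-values from limma, as in the report.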
